A study of Mus musculus with 8 samples.

Results

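Collagen VI and the fibril-associated collagens were described in the tibialis anterior (TA) muscle of old mice lacking fast myosin binding protein-C, through 9 genes taken from the deposited gene table by their symbols. These were *Col6a1*, *Col6a2*, *Col6a3*, *Col6a6*, *Col8a1*, *Col12a1*, *Col14a1*, *Col16a1* and *Col22a1*, out of 43 collagen genes and 16686 genes in the table. Collagen VI is represented by its *Col6* genes, and *Col12a1*, *Col14a1*, *Col16a1* and *Col22a1* encode fibril-associated collagens. *Col8a1* belongs to neither class, since collagen VIII is a short-chain, network-forming collagen. RNA was sequenced from 4 WT mice (genotype FVBN/WT) and 4 C2-/- mice (genotype FVBN/C2-/-), all male and 22 months old by their age label, with one library per mouse. The C2-/- allele carries a Neo cassette flanked by LoxP sites in place of most *Mybpc2* exons, and no muscle-specific promoter or Cre is named. Whether WT and C2-/- mice were littermates is not given in the sources used here.

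Collagen VI is a microfibrillar collagen of the interstitial matrix next to the basement membrane of muscle fibres. Its α1 and α2 chains join with a further chain, usually α3 and in some places α4, α5 or α6, before the assembled molecules are secreted and form beaded filaments. In muscle it is made mainly by fibroblasts of the interstitium, and mutations of *COL6A1*, *COL6A2* or *COL6A3* cause Bethlem myopathy and Ullrich congenital muscular dystrophy. Fibril-associated collagens with interrupted triple helices do not form fibrils of their own and lie on the surface of fibrils of collagen I or other matrix structures. Collagen XII and collagen XIV are found on such fibrils in tendon, fascia and skin, and collagen XXII marks the myotendinous junction.

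Library totals lay between 25425986 and 29747692 counts, and a level of 3 counts, the smallest taken as shown, corresponded to 0.101 to 0.118 CPM (counts scaled to a common library size with TMM factors), which covers counting error only. *Mybpc2* (gene ID 233199, chromosome 7) was at 4964 to 7392 CPM in WT and at 3.85 to 38.3 CPM in C2-/-, with the highest C2-/- value in replicate 3. The muscle fibre markers *Acta1*, *Ckm*, *Myh4*, *Myh1*, *Pvalb* and *Mylpf* were found in all libraries. *Fos*, an immediate early gene, was high in WT replicates 2 and 4 and in C2-/- replicate 2, with 70.9, 245 and 123 CPM against 0.901 to 7.80 CPM elsewhere. Beyond what is given here, the labels say of the samples only that they are separate mice. The p-values of the fits set the difference between the genotypes against the spread of these 8 animals within their genotypes.

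All 9 collagen genes passed the filter on low counts, and all 9 had a log2 fold change (C2-/- over WT) above 0, as did 45.8% of the 12542 genes tested. The median log2 fold change was 0.82 over the 9 genes and −0.02 over all tested genes. With an edgeR quasi-likelihood p below 0.05 before adjustment, 5 of the 9 were higher in C2-/-, namely *Col6a1*, *Col6a2*, *Col6a3*, *Col16a1* and *Col22a1*, against 3.38% of all tested genes that were higher at that level and 5.29% in either direction. The genes were chosen with earlier results of these data known. *Col16a1* correlated with *Col6a1*, *Col6a2* and *Col6a3* at 0.89 to 0.93 within the genotypes, and these 3 with one another at 0.96 to 0.98. The 5 are therefore not independent. The fitted difference was over 1.5-fold for 7 of the 9, all but *Col8a1* and *Col16a1*, against 4.3% of tested genes. With Benjamini-Hochberg adjustment over all tested genes, 0 of the 9 had an adjusted p under 0.05, against 0.0319% of tested genes that also passed 1.5-fold. The smallest adjusted p of any of the 9 under the alternative tests was 0.0690, for *Col6a1* with DESeq2. The number of the 9 with an unadjusted p under 0.05 was 6 with DESeq2 and 5 with limma-voom, against 725 and 659 of all 12542 tested genes. Without the 3 mice with high *Fos* it was 4, against 592 of 12762 genes. It was 3 without WT replicate 1, against 695 of 12691 genes. It was also 3 without C2-/- replicate 2, 3 or 4, against 587 of 12677, 567 of 12651 and 504 of 12650 genes. WT and C2-/- mice were fully apart in CPM for 4 of the 9, *Col6a1*, *Col6a2*, *Col6a3* and *Col16a1*, against 2.03% of tested genes whose C2-/- values all lay above WT. The summed markers of fibro-adipogenic progenitors, interstitial fibroblasts of muscle, were also higher in every C2-/- mouse than in any WT mouse, as was the mean log2 CPM of the smooth muscle and pericyte markers. The part of these cells in the collagen differences cannot be told apart from that of the genotype.

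**Figure D1:**
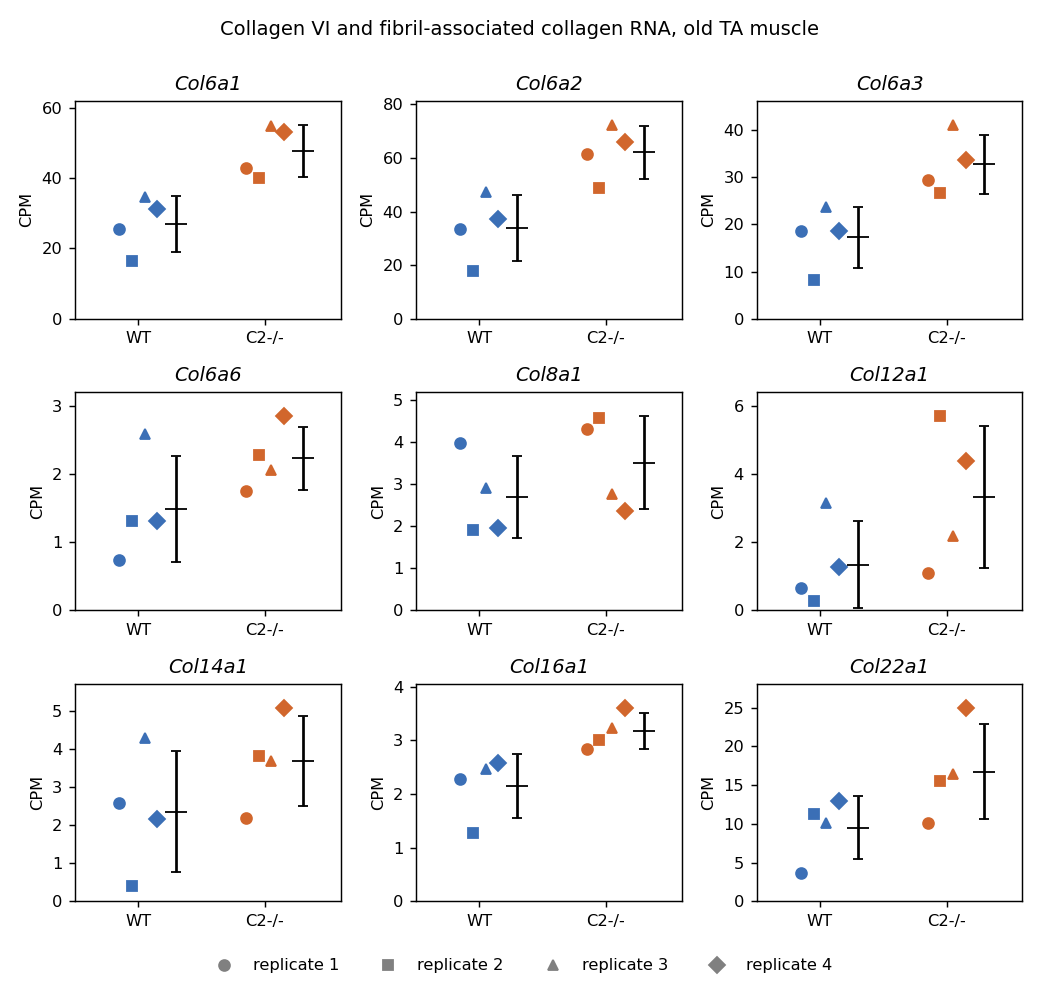
CPM (linear axis from 0, one scale per gene) of the 9 collagen genes in 4 WT mice (blue) and 4 C2-/- mice (orange), with one symbol shape per replicate number and the mean ± SD beside the points. The genotypes are apart for *Col6a1*, *Col6a2*, *Col6a3* and *Col16a1* and overlap for the other genes.

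**Figure D2:**
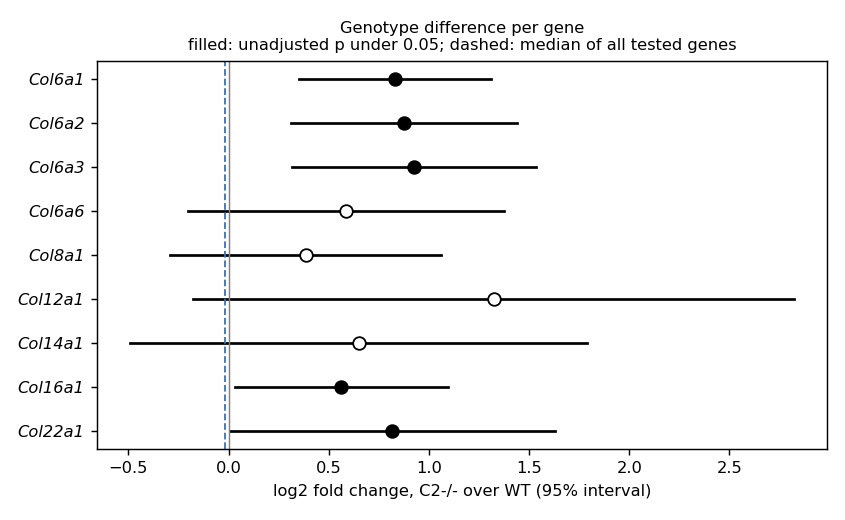
Log2 fold change (C2-/- over WT) of each of the 9 genes with its 95% interval from edgeR's quasi-likelihood fit. The 5 filled points have an unadjusted p under 0.05, and the dashed line is the median of all tested genes, −0.02.

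*Col6a1* (gene ID 12833) encodes the α1 chain, which is required for every collagen VI molecule, and lies on chromosome 10 from 76708374 to 76726054 on the minus strand (GRCm38). Its expression was 25.5, 16.3, 34.5 and 31.1 CPM in WT replicates 1, 2, 3 and 4, and 43.0, 40.0, 54.9 and 53.1 CPM in C2-/- replicates 1, 2, 3 and 4. The lowest C2-/- mouse, replicate 2, was above the highest WT mouse, replicate 3. The group means were 26.9 ± 7.94 CPM (SD, n = 4) in WT and 47.8 ± 7.37 CPM (SD, n = 4) in C2-/-, a 1.78-fold difference of means. The log2 fold change was 0.83 (standard error 0.22, 95% interval 0.35 to 1.31, edgeR quasi-likelihood unadjusted p = 0.00308 and adjusted p = 0.598). With each mouse left out in turn the estimate stayed between 0.66 and 0.98, always with an unadjusted p under 0.05.

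*Col6a2* (gene ID 12834) encodes the α2 chain and lies on the same chromosome, 10, from 76594109 to 76623625, also on the minus strand. It was at 33.5, 17.8, 47.2 and 37.0 CPM in WT replicates 1 to 4 and at 61.5, 48.8, 72.3 and 65.8 CPM in C2-/- replicates 1 to 4. As for *Col6a1*, WT replicate 2 was lowest, C2-/- replicate 3 was highest, and the groups did not overlap. The log2 fold change was 0.87 (standard error 0.25, 95% interval 0.31 to 1.44, edgeR quasi-likelihood unadjusted p = 0.00610 and adjusted p = 0.702). *Col6a3* (gene ID 12835, chromosome 1 from 90766860 to 90844221, minus strand) encodes the long α3 chain, whose C-terminal end is released as endotrophin. Its expression was 18.6, 8.21, 23.6 and 18.6 CPM in WT replicates 1 to 4 and 29.4, 26.7, 41.1 and 33.8 CPM in C2-/- replicates 1 to 4. Again every C2-/- mouse was above every WT mouse. The log2 fold change of *Col6a3* was 0.92 (standard error 0.28, 95% interval 0.31 to 1.54, edgeR quasi-likelihood unadjusted p = 0.00695 and adjusted p = 0.731). The adjusted p over all alternatives ranged from 0.0690 to 1.0 for *Col6a1*, from 0.133 to 1.0 for *Col6a2* and from 0.147 to 1.0 for *Col6a3*. The interval given for *Rcor3*, on the other strand, runs from 202723 to 192138067 and so spans *Col6a3* and most of chromosome 1. An interval of this length cannot be that of a single gene, so it does not show that reads of the genes overlap. Strand use in counting is not given in the sources used here.

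The 3 chains kept nearly the same order of mice. After the mean of each genotype was subtracted from log2 CPM, the correlation over the 8 mice was 0.97 between *Col6a1* and *Col6a2*, 0.96 between *Col6a1* and *Col6a3* and 0.98 between *Col6a2* and *Col6a3*, given here as a description. The sequences before their transcription starts are shown because these 3 chains moved together over the mice. They are the 250 bases before each start listed in RefSeq's GRCm38.p6, written from 5′ to 3′ on the strand of the gene, and *Col6a2* has 2 listed starts. The whole *Col6a3* window lies inside the interval given above for that gene, and the RefSeq interval ends within the window, at 90844001. It is therefore not only sequence upstream of the gene. The *Col6a1* window and the nearer *Col6a2* window also overlap in part with the intervals given for their genes. Capitals mark matches, on either strand, to any of 5 motifs. Searched were the TATA box, spelled TATAAA, and the CCAAT box, spelled by its name. The GC box was searched as GGGCGG and the SMAD box as CAGAC. The AP-1 site was searched as TGANTCA, with N for any base.
*Col6a1*, chr10:76726045-76726294, minus strand: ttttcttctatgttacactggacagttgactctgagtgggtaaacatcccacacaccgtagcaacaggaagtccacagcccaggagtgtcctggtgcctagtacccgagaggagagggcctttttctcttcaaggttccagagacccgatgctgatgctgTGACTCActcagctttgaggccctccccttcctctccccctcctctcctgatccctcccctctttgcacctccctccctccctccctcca
*Col6a2*, start nearer the coding part, chr10:76623405-76623654, minus strand: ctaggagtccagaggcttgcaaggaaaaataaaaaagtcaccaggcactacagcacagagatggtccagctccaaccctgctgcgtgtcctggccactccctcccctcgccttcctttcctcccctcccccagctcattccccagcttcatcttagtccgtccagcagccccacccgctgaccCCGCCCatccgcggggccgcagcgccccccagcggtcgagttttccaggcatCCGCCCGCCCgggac
*Col6a2*, start further upstream, chr10:76623631-76623880, minus strand: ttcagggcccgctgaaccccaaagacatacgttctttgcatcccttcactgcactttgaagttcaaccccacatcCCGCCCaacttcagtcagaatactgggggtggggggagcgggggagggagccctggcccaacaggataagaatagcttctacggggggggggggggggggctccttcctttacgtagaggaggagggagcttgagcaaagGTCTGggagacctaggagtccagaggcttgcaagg
*Col6a3*, chr1:90843972-90844221, minus strand: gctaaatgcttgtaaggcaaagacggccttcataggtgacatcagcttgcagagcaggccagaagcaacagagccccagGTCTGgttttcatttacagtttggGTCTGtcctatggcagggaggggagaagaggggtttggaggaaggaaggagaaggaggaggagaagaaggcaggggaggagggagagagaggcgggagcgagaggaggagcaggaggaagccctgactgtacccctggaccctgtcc
The windows of *Col6a1* and *Col6a3* held no GC box and those of *Col6a2* held 3 and 1, and 32.7% of the 32851 windows of this length in the RefSeq table hold at least 1. At 15 and 11 bases before the nearer *Col6a2* start, 2 of these GC boxes overlap each other. *Col6a1* had an AP-1 match beginning 90 bases before its start, which 6.75% of all windows hold. *Col6a3* had SMAD box matches at 171 and 147 bases before its start and the upstream *Col6a2* window at 35 bases, a motif found in 42.2% of all windows. No window of the 3 genes held a TATA box or a CCAAT box, which 12.4% and 33.8% of all windows hold. None of the 5 motifs searched was in the windows of all 3 genes. GC content was 56.0% for *Col6a1*, 64.4% and 59.2% for *Col6a2* and 57.2% for *Col6a3*, against a median of 52.4% over all windows. A match here is a match of letters and not a measured binding site.

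*Col6a6* (gene ID 245026, chromosome 9 from 105689417 to 105828245, minus strand) encodes α6, a chain that can take the place of α3. It was counted at a far lower level, with 0.733, 1.31, 2.58 and 1.30 CPM in WT replicates 1 to 4 and 1.74, 2.27, 2.06 and 2.84 CPM in C2-/- replicates 1 to 4. WT replicate 3 was above 3 of the 4 C2-/- mice, so that the groups overlapped. The log2 fold change was 0.59 (95% interval −0.20 to 1.38, edgeR quasi-likelihood unadjusted p = 0.128 and adjusted p = 0.968). Without WT replicate 3 it was 1.0, with an unadjusted p of 0.00979, and without WT replicate 1 it was 0.36, with an unadjusted p of 0.282. *Col6a6* followed the other chains less closely over the mice, with correlations of 0.40, 0.32 and 0.23 with *Col6a1*, *Col6a2* and *Col6a3* after subtraction of the genotype means. *Col6a5*, the gene of a further α3-like chain, had between 0 and 10 counts per mouse and was not tested.

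Ratios of counts between chains within a library do not depend on library size or on its scaling, and 7 ratios were compared between the genotypes. The ratio of *Col6a2* to *Col6a1* was 1.32, 1.09, 1.37 and 1.19 in WT replicates 1 to 4 and 1.43, 1.22, 1.32 and 1.24 in C2-/- replicates 1 to 4. The range of this ratio over all 8 mice, 1.09 to 1.43, was narrow beside the spread of either gene, and the difference of mean log2 ratios was 0.07 (two-sided exact permutation test, p = 0.457). The ratio of *Col6a3* to *Col6a1* was 0.731, 0.502, 0.684 and 0.598 in WT and 0.683, 0.669, 0.748 and 0.636 in C2-/-, a difference of 0.13 (two-sided exact permutation test, p = 0.40). WT replicate 2 had the lowest value of both ratios. The ratio of *Col6a6* to *Col6a3* differed by −0.30 (two-sided exact permutation test, p = 0.543), with overlapping groups.

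A further comparison set the genes against *Col1a1*, which encodes the main chain of collagen I fibrils and was at 22.1 to 70.7 CPM in WT and at 87.0 to 159 CPM in C2-/-. The ratio of *Col6a1* to *Col1a1* was 0.608, 0.738, 0.488 and 0.457 in WT replicates 1 to 4 and 0.447, 0.460, 0.351 and 0.335 in C2-/- replicates 1 to 4. The groups overlapped, as C2-/- replicate 2 was above WT replicate 4. The log2 ratio was lower by 0.51 in C2-/-, and the test did not pass the threshold (two-sided exact permutation test, p = 0.0571, adjusted p = 0.40 over the 7 ratios). The difference stayed between −0.61 and −0.38 with each mouse left out. Against *Col1a1*, the log2 ratio differed by 0.23 for *Col12a1*, −0.38 for *Col14a1* and −0.49 for *Col22a1* (two-sided exact permutation tests, p = 0.743, 0.40 and 0.571). All 7 ratios overlapped between the genotypes, and adjusted over the 7 ratios no p was under 0.40. The smallest p that 4 mice against 4 allow is 0.0286.

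**Figure D3:**
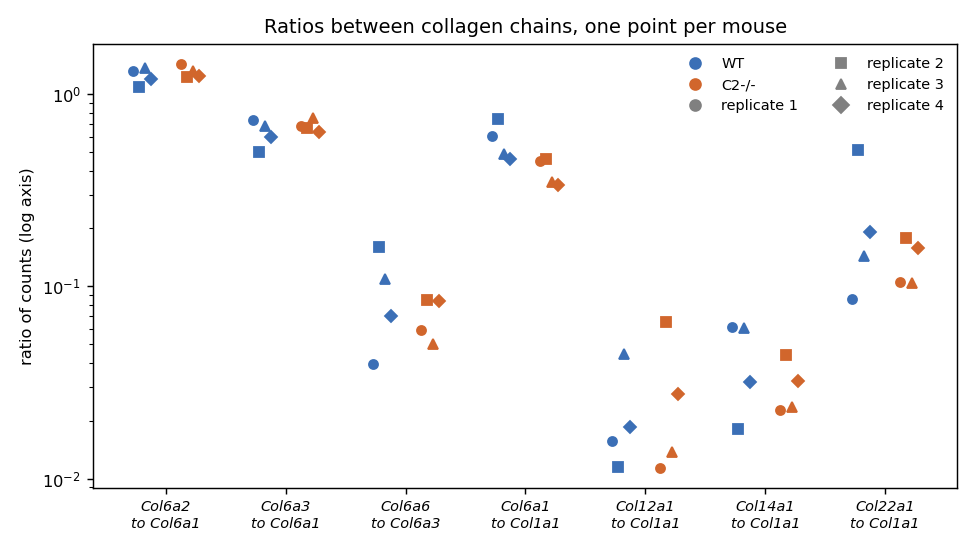
Ratio of counts between collagen genes (log axis), with one point per mouse, WT in blue and C2-/- in orange, and one symbol shape per replicate number. *Col6a2* to *Col6a1* lies within 1.09 to 1.43 in all mice, and *Col22a1* to *Col1a1* ranges from 0.0864 to 0.512.

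*Col12a1* (gene ID 12816, chromosome 9 from 79598987 to 79719599, plus strand) encodes collagen XII, which bridges collagen I fibrils to other matrix proteins and whose mutation also causes a myopathy. It was at 0.656, 0.255, 3.14 and 1.27 CPM in WT replicates 1 to 4 and at 1.10, 5.69, 2.16 and 4.37 CPM in C2-/- replicates 1 to 4. The lowest value, in WT replicate 2, rested on 7 counts. C2-/- replicates 2 and 4 were above every WT mouse, while C2-/- replicate 1 was below WT replicates 3 and 4. Among the 9 genes *Col12a1* had the largest log2 fold change, 1.32, and also the widest 95% interval, −0.18 to 2.82 (edgeR quasi-likelihood unadjusted p = 0.0779 and adjusted p = 0.968). Its coefficient of variation within WT was 96.0%, against 29.5% for *Col6a1*. The estimate was 2.19 without WT replicate 3 (unadjusted p = 0.00733) and 1.62 without C2-/- replicate 1 (unadjusted p = 0.0356). It was lower without C2-/- replicate 2, at 0.94 (unadjusted p = 0.222), without WT replicate 2, at 0.99 (unadjusted p = 0.130), and without WT replicate 1, at 1.10 (unadjusted p = 0.168).

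*Col14a1* (gene ID 12818, chromosome 15 from 55307694 to 55520803, plus strand) encodes collagen XIV, a close relative of collagen XII. Its expression was 2.58, 0.401, 4.29 and 2.17 CPM in WT replicates 1 to 4 and 2.20, 3.83, 3.69 and 5.10 CPM in C2-/- replicates 1 to 4. WT replicate 3 was above all C2-/- mice but replicate 4, and the groups overlapped. The log2 fold change was 0.65 (95% interval −0.49 to 1.79, edgeR quasi-likelihood unadjusted p = 0.234). It was 0.30 without WT replicate 2, in which *Col14a1* had 11 counts, and 1.11 without WT replicate 3. *Col14a1* followed *Col12a1* with a correlation of 0.84 and the 3 main collagen VI chains with 0.87 to 0.91, after subtraction of the genotype means.

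*Col16a1* (gene ID 107581, chromosome 4 from 130047389 to 130099277, plus strand) encodes collagen XVI, a minor component found with fibrillar collagen and with fibrillin microfibrils. It was at 2.28, 1.28, 2.46 and 2.57 CPM in WT replicates 1 to 4 and at 2.84, 3.01, 3.23 and 3.61 CPM in C2-/- replicates 1 to 4. Every C2-/- mouse was above every WT mouse, by a small margin between C2-/- replicate 1 and WT replicate 4. The log2 fold change of 0.56 (95% interval 0.03 to 1.10, edgeR quasi-likelihood unadjusted p = 0.0402 and adjusted p = 0.919) lost its unadjusted p under 0.05 when WT replicate 1 or 2 or C2-/- replicate 2, 3 or 4 was left out. The estimate then lay between 0.39 and 0.59. The table gives 5 other genes intervals that span large parts of chromosome 4 and *Col16a1*, the highest of them with a mean of 35.5 counts per mouse. As for *Rcor3*, such intervals cannot be those of single genes and do not show that reads overlap.

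*Col22a1* (gene ID 69700, chromosome 15 from 71798476 to 72150978, plus strand) encodes collagen XXII of the myotendinous junction, where muscle fibres transmit force to tendon. It was at 3.62, 11.3, 10.1 and 13.0 CPM in WT replicates 1 to 4 and at 10.1, 15.5, 16.4 and 25 CPM in C2-/- replicates 1 to 4. C2-/- replicates 2, 3 and 4 were above every WT mouse, while C2-/- replicate 1 lay among the WT mice and WT replicate 1 was far below the rest. The log2 fold change was 0.82 (95% interval 0.01 to 1.63, edgeR quasi-likelihood unadjusted p = 0.0488 and adjusted p = 0.937). It lost its unadjusted p under 0.05 when WT replicate 1 or 3 or C2-/- replicate 2, 3 or 4 was left out, with estimates of 0.55 to 0.86. Over the mice *Col22a1* did not follow the main collagen VI chains, with correlations of 0.15, −0.04 and −0.11 with *Col6a1*, *Col6a2* and *Col6a3* after subtraction of the genotype means. Its correlation with *Col6a6* was 0.72.

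*Col8a1* (gene ID 12837, chromosome 16 from 57624256 to 57754737, minus strand) encodes the α1 chain of collagen VIII, known from vessel walls and from the cornea. It was at 3.97, 1.90, 2.91 and 1.95 CPM in WT replicates 1 to 4 and at 4.32, 4.57, 2.77 and 2.36 CPM in C2-/- replicates 1 to 4. Mice of both genotypes were high and low, and the log2 fold change of 0.38 had a 95% interval of −0.29 to 1.06 (edgeR quasi-likelihood unadjusted p = 0.237). Without the 3 mice with high *Fos* the estimate was −0.12. *Col8a1* had a correlation of −0.84 with *Col22a1* over the mice after subtraction of the genotype means, the lowest of the 36 between the 9 genes.

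Levels of different genes were set side by side per transcript length, as the authors' TPM (values scaled for transcript length and library). *Col6a2* led with 16.3 ± 6.91 TPM (SD, n = 4) in WT and 30.8 ± 4.58 TPM (SD, n = 4) in C2-/-, followed by *Col6a1* with 12.3 ± 4.39 TPM (SD, n = 4) and 22.7 ± 3.61 TPM (SD, n = 4). The ranges of these neighbours over the mice overlapped in both genotypes, but within every mouse *Col6a2* was above *Col6a1*. The 2 values were closest in WT replicate 2, at 7.70 and 6.79 TPM. *Col6a3* at 3.44 ± 1.46 TPM (SD, n = 4) in WT and 6.77 ± 1.26 TPM (SD, n = 4) in C2-/- lay below them without overlap, and overlapped in turn with *Col22a1*, at 3.35 ± 1.43 and 6.31 ± 2.29 TPM (SD, n = 4 each). Next came *Col16a1*, *Col8a1*, *Col14a1*, *Col6a6* and *Col12a1*, with means over the 8 mice of 1.14, 1.12, 0.899, 0.485 and 0.435 TPM, and each overlapped with the next in both genotypes. All 5 lay below *Col22a1* without overlap in C2-/-. In WT *Col22a1* reached down to 1.28 TPM and overlapped with *Col8a1* and *Col14a1*, which reached 1.37 and 1.34 TPM. *Col6a1* and *Col6a2* together thus held most of the summed TPM of the 9 genes, with 32.0% and 42.3% in WT and 31.7% and 43.0% in C2-/-. By CPM per kb of coding length in place of TPM, 4 of the 9 genes kept their place, and *Col22a1* moved above *Col6a3*.

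Related genes were read from lists chosen with earlier results of these data known, and are given as counts without a test of the list. Over all 12542 tested genes, 45.8% were higher in C2-/- and 3.38% were higher at an unadjusted p below 0.05. Of the fibril-associated and related collagens outside the 9 genes, 4 were tested, 2 were higher and 2 lower, and the median log2 fold change was 0.00. *Col9a1*, which encodes a chain of collagen IX, the fibril-associated collagen of cartilage, was at 0.886 ± 0.330 CPM (SD, n = 4) in WT and 0.324 ± 0.0979 CPM (SD, n = 4) in C2-/-. This was a log2 fold change of −1.44 (standard error 0.39, edgeR quasi-likelihood unadjusted p = 0.00403 and adjusted p = 0.615), opposite in sign to those of the 9 genes. Of 10 fibrillar collagen genes tested, 8 were higher in C2-/-, 5 of them at an unadjusted p below 0.05, with a median log2 fold change of 0.72. *Col5a2*, *Col5a1* and *Col1a1* had log2 fold changes of 0.93, 0.77 and 1.30.

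Of 10 collagen receptor genes tested, 8 were higher, 4 of them at an unadjusted p below 0.05, and 0 of the lower genes reached this level. *Cspg4*, which encodes the collagen VI-binding proteoglycan NG2, was at 7.81 ± 2.36 CPM (SD, n = 4) in WT and 12.7 ± 0.466 CPM (SD, n = 4) in C2-/-, with a log2 fold change of 0.70 and no overlap. *Mrc2*, an endocytic receptor for collagen, and *Antxr1*, an anthrax toxin receptor that binds collagen, had log2 fold changes of 0.85 and 0.60 with overlapping groups. All 14 tested genes of matrix partners were higher, 7 of them with an unadjusted p under 0.05, with a median log2 fold change of 0.63. Among them were *Mfap2*, *Fn1* and *Fbln2*, which encode a microfibril protein, fibronectin and fibulin-2, with log2 fold changes of 0.84, 1.20 and 0.52. The list of matrix partners shares 2 genes with the tendon markers and 2 with the fibro-adipogenic progenitor markers below, so these lists are not independent. Of 9 genes of matrix proteases and their inhibitors, 5 were higher and 4 lower. *Mmp2*, which encodes gelatinase A, and *Timp2*, which encodes an inhibitor that also takes part in its activation, were higher without overlap, with log2 fold changes of 0.77 (unadjusted p = 0.000468) and 0.62 (unadjusted p = 0.00525). After Benjamini-Hochberg adjustment of edgeR's quasi-likelihood p-values over all tested genes, 0 genes of these lists passed 0.05.

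Markers of cell types that can make these collagens were read in the same way, and 0 of them passed the adjusted threshold in edgeR's quasi-likelihood fit. All 10 markers of fibro-adipogenic progenitors, the main interstitial fibroblast population of muscle, were tested and higher in C2-/-, 3 of them (*Dpt*, *Clec3b* and *Cd248*) with an unadjusted p under 0.05. Their summed level was 122 to 164 CPM in WT and 191 to 204 CPM in C2-/-, without overlap, and every marker was detected. Of 9 tendon markers, 8 were tested and 7 were higher, *Cilp2* and *Tnmd* with an unadjusted p under 0.05. Their summed level was 59.7 to 197 CPM in WT and 100 to 277 CPM in C2-/-, so that the genotypes overlapped. The part of these cells in the collagen values was not tested apart from the fits with a marker level given next, and in bulk RNA more cells of a type and more RNA per cell cannot be told apart. All 7 markers of smooth muscle and pericytes were higher in C2-/-. Their mean log2 CPM was 4.71 to 5.30 in WT and 5.38 to 5.55 in C2-/-, without overlap, while their summed level, 256 to 407 CPM in WT and 389 to 462 CPM in C2-/-, overlapped. The part of these cells in the collagen values was not tested. Summed markers of macrophages, adipocytes, endothelium, Schwann cells, satellite cells, and cartilage and bone overlapped between the genotypes. All 6 macrophage markers and 4 of 5 adipocyte markers were still higher in C2-/-, with median log2 fold changes of 0.40 and 0.76. Higher were 3 of 6 endothelial, 1 of 5 Schwann cell, 2 of 3 tested satellite cell and 1 of 2 tested cartilage and bone markers. The lists of these cell types held 0 genes with an unadjusted p under 0.05, and that of smooth muscle and pericytes held 2, *Cspg4* and *Pdgfrb*.

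With the mean log2 CPM of the tendon markers added to the model, 2 of the 9 kept an unadjusted p below 0.05, *Col6a1* with a log2 fold change of 0.54 and *Col6a2* with 0.60. Of the 12542 tested genes, 746 had an unadjusted p under 0.05 in this fit. *Col6a3* was at 0.64 with an unadjusted p of 0.0567. *Col12a1* went from 1.32 to −0.041 and *Col14a1* from 0.65 to −0.11. Mice high in tendon markers were also high in *Col12a1*, as the tendon level was 0.97, 0.56, 2.99 and 2.50 in WT replicates 1 to 4 and 2.16, 3.58, 2.71 and 3.69 in C2-/- replicates 1 to 4, the same order as that of *Col12a1* but for small changes. With the fibro-adipogenic progenitor level, which does not overlap between the genotypes (2.95 to 3.56 in WT, 3.69 to 3.91 in C2-/-), *Col6a1* was at 0.0038 and 1 of the 9, *Col14a1*, was at an unadjusted p of 0.0431, with a log2 fold change of −1.29. Of the 12542 tested genes, 1220 had an unadjusted p under 0.05 with this level. *Col22a1* was at 1.13 in this fit (95% interval −0.37 to 2.64). Since this marker level separates the mice as the genotype does, the parts of marker level and genotype in these values cannot be told apart.

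**Figure D4:**
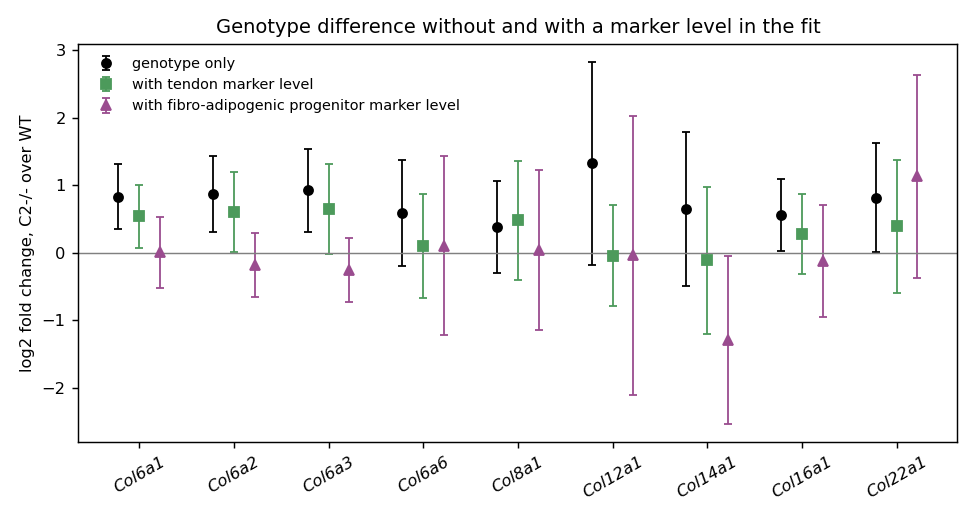
Log2 fold change (C2-/- over WT, with 95% intervals) of the 9 genes from the fit with genotype alone (circles), with the tendon marker level (squares) and with the fibro-adipogenic progenitor marker level (triangles). *Col12a1* and *Col14a1* lie near or below 0 in both fits with a marker level, and *Col6a1* and *Col6a2* stay above 0 with the tendon level.

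Genes outside the 9 whose log2 CPM followed a collagen most closely over the 8 mice, after subtraction of the genotype means, were named by rank among 12533 genes. These correlations are given as a description, with no test. The genes most like the mean of *Col6a1*, *Col6a2* and *Col6a3* were *Rnf157*, *Col3a1*, *Psd3*, *Map2k6* and *Gen1*, with correlations of 0.98 for each. Of these *Col3a1*, which encodes the fibrillar collagen III, had an unadjusted p under 0.05 between the genotypes (log2 fold change 1.38, edgeR quasi-likelihood unadjusted p = 0.0117 and adjusted p = 0.755). Among the genes most like *Col12a1* were *Gnaq*, *Thbs4*, *Slit3* and *Dlc1* (0.99, 0.99, 0.98 and 0.98), of which *Thbs4*, encoding thrombospondin-4, is one of the tendon markers. Those most like *Col22a1* were *Insr*, *Dync2h1*, *Zfp641*, *Phc3* and *Pdcd11*, with correlations of 0.97 for each, and their own log2 fold changes lay between −0.42 and 0.11.

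WT replicate 2 was the lowest of the 8 mice in 7 of the 9 genes, and C2-/- replicate 4 was among the 2 highest in 8 of the 9 and the highest in 4. *Col8a1* was the exception for C2-/- replicate 4, and *Col6a6* and *Col22a1* were lowest in WT replicate 1. The median of the 9 genes relative to their WT means was 59.5% in WT replicate 2, 99.0% in WT replicate 1, 107.8% in WT replicate 4 and 136.7% in WT replicate 3. It was 132.3%, 154.9%, 162.9% and 195.6% in C2-/- replicates 1, 2, 3 and 4, so that WT replicate 3 lay above C2-/- replicate 1. Without WT replicate 2 the log2 fold changes of *Col6a1*, *Col6a2* and *Col6a3* were 0.66, 0.67 and 0.70. Without the 3 mice with high *Fos*, an alternative chosen after seeing the data, they were 0.76, 0.73 and 0.73, each with an unadjusted p under 0.05. The mice left were WT replicates 1 and 3 and C2-/- replicates 1, 3 and 4. In these 5 mice *Col22a1* was at 1.33, *Col16a1* at 0.45, *Col12a1* at 0.44 and *Col14a1* at 0.10. Of these genes *Col22a1* alone had an edgeR quasi-likelihood unadjusted p under 0.05 (0.0194). Its values in the WT mice left were 3.62 CPM in replicate 1, far below all other mice, and 10.1 CPM in replicate 3.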

How the data were processed

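RNA of TA muscle from 4 WT and 4 C2-/- mice was enriched for poly(A) and sequenced by the authors on DNA nanoballs, and reads were aligned with HISAT to GRCm38.p6. The labels also list Bowtie2, so it is uncertain which alignment the deposited counts come from. One growth protocol in the labels gives another age than the age label. The authors deposited expected counts per gene without normalization, of which 5.50% to 6.53% per mouse are not whole numbers, so that these are estimated counts although the methods name featureCounts. They were rounded. The deposited TPM values were used for levels per length, 8 further columns (FPKM, 1 for each mouse) were not used, and the authors' fold changes, p-values and q-values from DESeq2 were not used. Of 16687 rows, 16686 had a gene ID and counts. Depth was 25425986 to 29747692 counts per mouse.

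edgeR 4.0.16 (R 4.3.3) was run with TMM factors of 0.929 to 1.03, the default filter on low counts, the quasi-likelihood test and Benjamini-Hochberg adjustment over 12542 genes. The methods name limma-voom, which was run as an alternative (limma 3.58.1), as was DESeq2 1.42.0. Marker levels are means of log2 CPM with a prior count of 2. Ratios were tested with exact permutation tests. The fit was checked on simulated counts. Genes were named as all 9 collagens, up to 3 per list with the smallest unadjusted p under 0.05, and the 5 most like 3 patterns, of which 1 is not reported here; *Col6a5*, *Rcor3* and the 6 muscle fibre markers were named outside this rule. The genes and lists were chosen with earlier results of these data known. Promoter windows are from RefSeq (GRCm38.p6), which matched 6 of the 9 genes (not *Col12a1*, *Col14a1* and *Col22a1*). *Col6a4* was not analysed here. Other values used Python 3.11.15 and pandas 2.3.3.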

Additional observations from a re-analysis of the deposited data

Results flagged for a closer look

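Of 36 groups of 4 values checked (CPM of the 9 collagens, *Mybpc2* and *Col1a1*, and the 7 ratios, in each genotype), 1 had a mouse standing apart from the others by Dixon's criterion, which flags about 1 in 20 groups by chance. This was *Mybpc2* in C2-/- replicate 3, at 38.3 CPM, where the nearest C2-/- mouse was at 4.35 CPM. Without this mouse the log2 fold changes of *Col6a1*, *Col6a2* and *Col6a3* kept an unadjusted p under 0.05, while *Col16a1* and *Col22a1* did not, at log2 fold changes of 0.56 and 0.84 against 0.56 and 0.82 with all mice.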

How the results depend on the processing

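The number of genes called with an adjusted p under 0.05 above 1.5-fold was 4, against 38 with DESeq2, 1 with the fibro-adipogenic progenitor level, 2 without the 3 mice with high *Fos* (chosen after seeing the data) and 4 to 7 with each mouse left out (7 without WT replicate 2). The number with an unadjusted p under 0.05 was 663, against 746 with the tendon level and 1220 with the fibro-adipogenic progenitor level. With each mouse left out it was 504 to 983. Of the 9 collagens, 5 had an unadjusted p under 0.05, against 2 with the tendon level, 1 with the fibro-adipogenic progenitor level and 3 to 6 with each mouse left out. The sign was reversed with the fibro-adipogenic progenitor level for *Col6a2* (−0.19), *Col6a3* (−0.26), *Col12a1* (−0.037), *Col14a1* (−1.29) and *Col16a1* (−0.12), with the tendon level for *Col12a1* (−0.041) and *Col14a1* (−0.11), and without the 3 mice with high *Fos* for *Col8a1* (−0.12). The cause was not tested. By CPM per kb of coding length, 4 of 9 genes kept their place in the order of levels. Same-numbered mice of the 2 genotypes had correlations of 0.27, 0.04, −0.05 and 0.02 of their deviations. Only C2-/- replicate 1 was most like the WT mouse of its own number. These correlations cannot decide whether the numbers pair the mice. With the replicate number as a block, 4 genes were called, 660 had an unadjusted p under 0.05 and 5 of the 9 collagens had an unadjusted p under 0.05. In edgeR's quasi-likelihood fit with this block, the unadjusted p was 0.000291 for *Col6a1*, 0.000368 for *Col6a2* and 0.000786 for *Col6a3*. It was 0.0387 for *Col16a1* and 0.00160 for *Col22a1*. The smallest adjusted p of these was 0.243, for *Col6a1*. Depth limits the low values, such as those of *Col12a1*, *Col14a1* and *Col6a6*, whose lowest mice had 7, 11 and 19 counts.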
